A study of Mus musculus with 6 samples.

Results

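Expression of 9 genes of the cytotoxic program was followed: the granzymes Gzma, Gzmb, Gzmk and Gzmc, the pore former perforin (Prf1), the granule membrane protein Nkg7, the death ligand Fasl, and the T-box transcription factors Eomes and Tbx21 (T-bet). They were chosen by symbol, and all 9 were found among the 23946 genes of the deposited table. Expression was measured by RNA sequencing in CD45+CD11b+F4/80+ cells, a surface phenotype of macrophages, sorted from the omentum (OM) and the mesentery (MY) of female C57BL/6 mice 6 to 8 weeks of age. The cells were taken from naive mice (OM 0h, MY 0h) and from mice 24 h (OM 24h, MY 24h) or 7 d (OM 7d, MY 7d) after an intraperitoneal injection of ID8 cells, a mouse ovarian carcinoma line that grows in C57BL/6 hosts with an intact immune system. No genetic change separated the groups, and the naive mice serve as the only controls, since none of the 6 libraries comes from mice given the vehicle alone. Each condition had 1 library, made from a pool of 3 mice, so no difference below has a replicate check, an error or a test.

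Cytotoxic lymphocytes, mainly natural killer (NK) cells and CD8 T cells, kill by releasing granules that hold perforin and granzymes. Perforin opens pores in the target cell, and the granzymes, serine proteases, pass through and cleave proteins that start cell death. Fas ligand kills by a second route, through the death receptor Fas. T-bet and Eomes are the transcription factors that drive much of this program, and NK cells need them to mature. Macrophages are not known as a main source of these transcripts, which makes the marker genes of other cell types part of any reading of the values.

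In the libraries, transcripts of NK cells and T cells were present beside those of macrophages. The 8 NK cell markers summed to between 28.4 and 197 FPKM (fragments mapped to a gene, scaled by its transcript length and by the size of the library) in the omental libraries and to between 418 and 926 in the mesenteric libraries. The 8 T cell markers summed to between 27.4 and 118 in the omentum and to between 569 and 1269 in the mesentery. Macrophage markers (7 genes) summed to between 7129 and 26351 in the omentum and to between 2949 and 4180 in the mesentery. Most of each sum was Lyz2, at 7054, 24780 and 6791 (naive, 24 h and 7 d) in the omentum and 2968, 3578 and 2571 in the mesentery. Emr1, which encodes F4/80, was at 27.4, 135 and 26.5 in the omentum and at 20.5, 68.6 and 37.5 in the mesentery. B cell markers (4 genes) summed to between 903 and 3958 in the omentum and to between 522 and 1532 in the mesentery, and neutrophil markers (3 genes) to between 5423 and 14011 and to between 60.6 and 569. OM 24h stood apart, with the lowest sums of NK, T and mast cell markers and the highest sum of macrophage markers. It also listed Cd74, an abundant transcript of antigen-presenting cells at 11323 or more in every other library, at 0, so a value listed at 0 there may be a failed estimate. In a bulk sample, fewer cells of a type and less RNA per cell cannot be told apart, and the part that NK, T or other cells in the sorted fraction had in the values below was not tested.

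The 9 genes lie at 7 loci, given here on the NCBIM37 (mm9) assembly with the GENCODE M1 annotation. Gzmb (chr14:56877693-56881097) and Gzmc (chr14:56850238-56853493) are neighbours on the minus strand, 24199 bases apart, in the granzyme and mast cell protease cluster of chromosome 14. Gzma (chr13:113884033-113891187) and Gzmk (chr13:113961816-114016116) share a second locus on the minus strand of chromosome 13, with 70628 bases between them. Prf1 (chr10:60760584-60767011), Nkg7 (chr7:50692443-50693616) and Eomes (chr9:118387330-118395250) lie on plus strands. Fasl (chr1:163710820-163718626) and Tbx21 (chr11:96959385-96976645) lie on minus strands. No stretch of 75 bases, the read length, in the longest coding transcript of each gene occurred exactly in a coding transcript of another gene. Inexact matches and sequences outside coding transcripts were not searched, so how uniquely the reads were assigned was not tested.

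Because Eomes and T-bet bind T-box motifs and act on granule genes together with RUNX factors, the 250 bases before the RefSeq start sites were searched on both strands for the letters AGGTGTGA or TCACACCT (a T-box site), GTGTGA or TCACAC (its core, which the longer site contains) and ACCACA or TGTGGT (a RUNX core). The sequences are those of RefSeq for GRCm38.p6, and each matched NCBIM37 at 1 place. The windows of Gzma, Gzmb and Prf1, the abundant granule effectors, and of Gzmk, whose tissues overlapped, are shown 5′ to 3′ on the strand of the gene, with motif letters in capitals, followed by the 30 bases around the T-box site of Nkg7.
Gzma, chr13:113891190-113891439, minus strand: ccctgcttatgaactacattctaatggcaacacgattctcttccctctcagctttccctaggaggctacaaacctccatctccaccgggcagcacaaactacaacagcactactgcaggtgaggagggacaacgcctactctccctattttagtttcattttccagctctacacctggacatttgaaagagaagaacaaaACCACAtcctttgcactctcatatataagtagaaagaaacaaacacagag
Gzmb, chr14:56881172-56881421, minus strand: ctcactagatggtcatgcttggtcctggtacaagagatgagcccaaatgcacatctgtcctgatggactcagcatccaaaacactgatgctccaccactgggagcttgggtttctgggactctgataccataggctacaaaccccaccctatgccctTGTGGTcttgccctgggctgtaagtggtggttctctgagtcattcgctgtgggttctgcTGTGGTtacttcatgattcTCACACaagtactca
Prf1, chr10:60760334-60760583, plus strand: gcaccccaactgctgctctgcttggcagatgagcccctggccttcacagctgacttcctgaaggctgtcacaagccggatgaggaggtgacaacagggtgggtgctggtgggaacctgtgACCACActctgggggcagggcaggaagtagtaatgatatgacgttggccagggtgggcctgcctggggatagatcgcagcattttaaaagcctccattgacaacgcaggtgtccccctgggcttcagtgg
Gzmk, chr13:113971174-113971423, minus strand: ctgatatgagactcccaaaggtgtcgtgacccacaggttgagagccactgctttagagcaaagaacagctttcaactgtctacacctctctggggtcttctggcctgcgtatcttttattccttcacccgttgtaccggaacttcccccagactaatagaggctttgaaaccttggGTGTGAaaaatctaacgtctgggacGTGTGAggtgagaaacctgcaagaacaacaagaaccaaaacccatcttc
Nkg7, chr7:50692478-50692507, plus strand: agggagggggtagggaAGGTGTGAgaagaa
The full T-box site was found in 1 of the 9 windows, that of Nkg7, where its first base lies 14 bases before the RefSeq start site, and in 1.12% of the 32851 promoters of the RefSeq table. The T-box core was found in 3 of the 9 (Gzmb, Gzmk and Nkg7) against 12.3% of all promoters. The RUNX core was found in 5 of the 9 (Gzma, Gzmb, Gzmc, Prf1 and Nkg7) against 14% of all promoters. None of these letters was found in the windows of Fasl, Eomes and Tbx21. In GENCODE M1, Gzmk and Nkg7 start farther upstream than in RefSeq. For Nkg7 the last 65 bases of the window lie in its annotated exon there, so on that annotation the T-box site is inside the gene, after its start. A match is a description of the letters in these windows, and no binding was measured.

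Where 3 values are given for a tissue, they are those of naive mice, of 24 h and of 7 d, in that order. Gzma and Nkg7 were by far the most abundant of the 9 transcripts. Gzma, a tryptase-like granzyme, was measured at 142, 2.37 and 57.4 FPKM in the omental libraries, and at 1092, 667 and 449 in the mesenteric libraries. Nkg7 was measured at 205, 13.3 and 138 FPKM in the omental libraries and at 1050.3, 641 and 574 in the mesenteric libraries. In MY 0h both genes stood above 99.7% of the 13064 expressed genes, those that reached an FPKM of 1 in some library. Together they made up between 78.3% and 85.6% of the summed FPKM of the 9 genes in every library, and in each of these 2 genes the 3 omental libraries were all below the 3 mesenteric ones.

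Gzmb, the granzyme that cleaves after aspartate and activates caspases, was measured at 17.4, 0.020 and 13.8 FPKM in the omental libraries, and at 142, 105 and 64.0 in the mesenteric libraries. Prf1 was measured at 25.6, 0.807 and 12.5 FPKM in the omental libraries and at 116, 75 and 55.4 in the mesenteric libraries. Both genes were highest in MY 0h and lowest in OM 24h, and their tissues did not overlap. In OM 24h, Gzmb stood above 2.12% of the expressed genes, against 95.4% in MY 0h.

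The other 2 granzymes were low throughout. Gzmk, a granzyme of memory-like T cells, was measured at 1.98 and 1.80 FPKM in OM 0h and OM 7d, was listed at 0 in OM 24h, and was measured at 3.24, 1.83 and 5.42 in the mesenteric libraries. Gzmc, the neighbour of Gzmb, was measured at 0.236 and 0.472 FPKM in OM 0h and OM 7d, was listed at 0 in OM 24h, and was measured at 0.730, 0.602 and 1.16 in the mesenteric libraries. Unlike the other members, both were highest in MY 7d. Gzmc counted as expressed through MY 7d alone, and Gzmk was the only member whose tissues overlapped, with OM 0h at 1.98 above MY 24h at 1.83. The FPKM ratio of Gzma to Gzmk ran from 32 in OM 7d to 365 in MY 24h among the 5 libraries where Gzmk was above 0.

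Fasl was measured at 5.94, 0.0136 and 5.53 FPKM in the omental libraries, and at 23.3, 13.5 and 10.2 in the mesenteric libraries. Eomes was measured at 5.73, 0.233 and 3.62 FPKM in the omental libraries and at 23.9, 11.4 and 8.0 in the mesenteric libraries. Tbx21 was measured at 17.5, 1.57 and 16.4 FPKM in the omental libraries and at 75.4, 36.5 and 35.6 in the mesenteric libraries. In these 3 genes, too, every omental library was below every mesenteric library. Tbx21 was the higher of the 2 T-box factors in every library, with an FPKM ratio to Eomes between 3.06 in OM 0h and 6.73 in OM 24h.

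**Figure D1:**
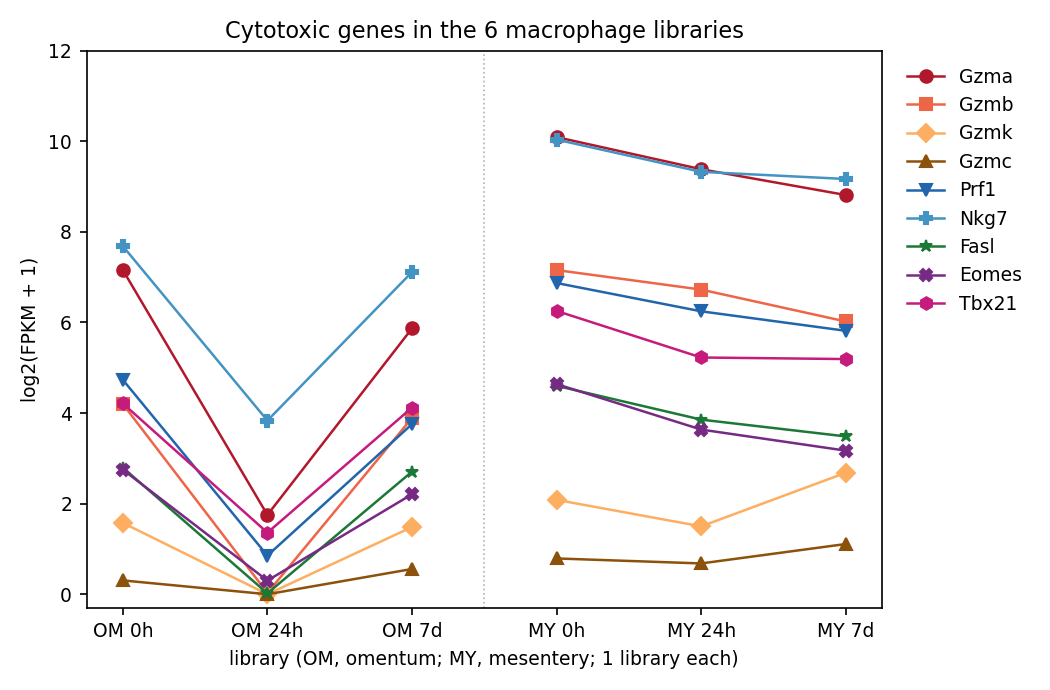
Levels of the 9 cytotoxic genes on the log2(FPKM + 1) scale (y axis) in the 6 libraries (x axis, omentum left and mesentery right), 1 colour and symbol per gene, with lines joining the libraries of a tissue and 1 library per point, so no error is drawn. The OM 24h point is the lowest of every gene, and Gzmk is the only gene in which an omental library lies above a mesenteric one.

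Summed over the 9 genes, the FPKM was 421, 18.3 and 249 in the omental libraries, and 2526, 1552 and 1203 in the mesenteric ones. As a share of all FPKM, this ran from 0.00256% in OM 24h to 0.479% in MY 0h. The order of the libraries by this sum, from highest to lowest, was MY 0h, MY 24h, MY 7d, OM 0h, OM 7d and OM 24h. In the absence of replicates it is not known which neighbours in this order differ beyond the spread between samples.

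In the naive state, cytotoxic transcripts were lower in the omentum than in the mesentery. On the log2(FPKM + 1) scale, on which all differences below are given and a call is a difference of 2-fold or more, 7 of the 9 genes were lower in the naive omentum and 0 were higher, with a median difference of -2.04. Of all expressed genes, 8.05% were lower and 8.18% higher, with a median of 0.01. Gzmb differed by -2.96 (an FPKM ratio of MY 0h to OM 0h of 8.16) and Gzma by -2.93 (7.69). Nkg7 differed by -2.35, Prf1 by -2.14, Tbx21 by -2.04, Eomes by -1.89 and Fasl by -1.81. The 2 genes that were not called were the low granzymes Gzmk (-0.51) and Gzmc (-0.49), whose differences the added 1 makes smaller than their FPKM ratios of 1.63 and 3.09. Beside them, 8 of 8 NK cell markers and 8 of 8 T cell markers were also lower in OM 0h, with medians of -2.39 and -3.08, while 3 of 7 macrophage markers were higher and 0 lower. B cell markers went the other way from those of NK and T cells, with 4 of 4 higher in OM 0h (median 2.24), and 2 of 3 neutrophil markers were higher.

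After ID8 injection, the omental values were lowest at 24 h. Compared with OM 0h, 8 of the 9 genes were lower in OM 24h and 0 were higher, with a median of -2.85, against 6.45% of expressed genes lower and 11.9% higher. Gzma differed by -5.41, an FPKM ratio of OM 0h to OM 24h of 60, Gzmb by -4.17, Prf1 by -3.88 and Nkg7 by -3.85 (15.5). Tbx21 differed by -2.85, Fasl by -2.78, Eomes by -2.45 and Gzmk, listed at 0, by -1.58, and Gzmc (-0.31) was not called. The FPKM of Gzmb and Fasl in OM 24h stood above 1.77% and 1.16% of the genes with a value above 0 there, a range in which a ratio cannot be read closely. In the same comparison 7 of 8 NK cell markers, 7 of 8 T cell markers and 5 of 6 mast cell markers were lower, and 6 of 7 macrophage markers were higher (median 1.81). All 4 B cell markers were lower (median -2.07), and all 3 neutrophil markers were higher (median 1.37). The NK cell receptor Ncr1 was at 26.2 in OM 0h and 0.612 in OM 24h, the NK receptor Klra4 was listed at 0 in OM 24h, and the T cell receptor component Cd3e was at 28.0 and 3.98.

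By 7 d the omental values were closer to those of the naive omentum. In OM 7d, 1 of the 9 genes, Gzma (-1.29), was lower than in OM 0h and 0 were higher, with a median of -0.31, against 1.96% of expressed genes lower and 11.0% higher. Prf1 lay just inside the limit of 1 log2 unit, at -0.98. The differences of Fasl, Gzmk and Tbx21 were all -0.09, and they became 0.04, 0.0052 and 0.05 when each library was rescaled to a sum of 1000000, so their direction depends on the scaling. Gzmc had a positive difference (0.25) on the deposited scale. The Gzma to Gzmb ratio in FPKM was 8.17 in OM 0h and 4.15 in OM 7d. NK cell markers were lower for 2 of 8 genes (median -0.54) and T cell markers for 0 of 8 (median 0.03).

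In the mesentery the median difference from the naive library was smaller than in the omentum at 24 h and larger at 7 d. In MY 24h, 2 of the 9 genes, Tbx21 (-1.03) and Eomes (-1.0), were lower than in MY 0h and 0 were higher, against 1.52% of expressed genes lower and 2.80% higher. All 9 differences were negative, with a median of -0.71. In MY 7d, 6 of the 9 were lower than in MY 0h and 0 were higher, with a median of -1.06, against 2.29% of expressed genes lower and 0.498% higher. Those 6 were Eomes (-1.47), Gzma (-1.28), Gzmb (-1.14), Fasl (-1.12), Tbx21 (-1.06) and Prf1 (-1.05), while Nkg7 was at -0.87, and Gzmc (0.32) and Gzmk (0.60) had positive differences. NK cell markers were lower for 6 of 8 genes in MY 7d, with a median of -1.26. T cell markers were lower for 0 of 8, with a median of 0.43, and Cd3e was at 237 in MY 0h and 256 in MY 7d.

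**Figure D2:**
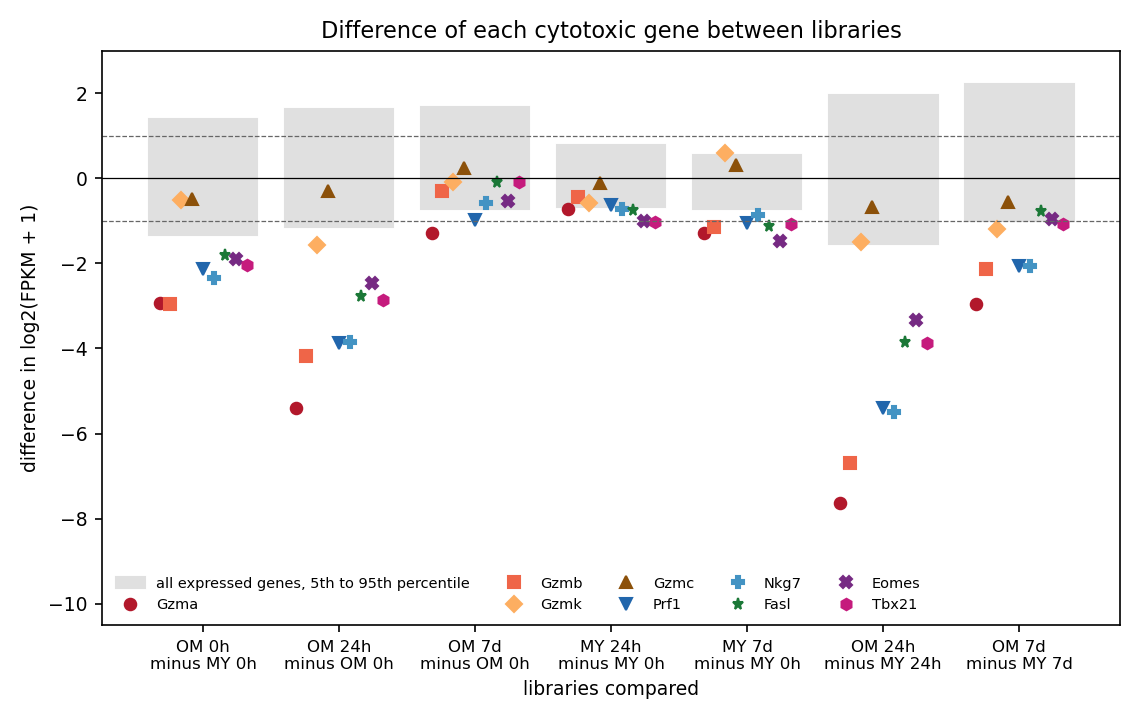
Differences in log2(FPKM + 1) of the 9 genes in the 7 comparisons of libraries, each point 1 gene, with grey bars spanning the 5th to 95th percentile of all 13064 expressed genes and dashed lines at 2-fold. The lowest points are those of Gzma and Gzmb in OM 24h against MY 24h, at -7.63 and -6.70, and Gzmk and Gzmc lie nearest to 0 in most comparisons.

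Between the tissues after injection, OM 24h was lower than MY 24h for 8 of the 9 genes and higher for 0, with a median of -3.87, against 10.2% of expressed genes lower and 13.9% higher. This comparison shares OM 24h with the one against the naive omentum. Gzma differed by -7.63, Gzmb by -6.70, Nkg7 by -5.49 and Prf1 by -5.39, and Gzmc (-0.68) was not called. At 7 d, OM 7d was lower than MY 7d for 6 of the 9 and higher for 0, with a median of -1.20, against 4.99% lower and 14.1% higher. Gzma differed by -2.95 and Gzmb by -2.13. Eomes (-0.96) and Fasl (-0.78) lay short of 2-fold.

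Over all 3 times, the 3 omental libraries lay below the 3 mesenteric ones for 8 of the 9 genes and above them for 0. Of all expressed genes, 17.7% lay below and 16.7% above. Without OM 24h the count was also 8. That was fixed in advance, because OM 24h was the lowest library for all 9 genes. Without OM 0h or without MY 24h the count was 9, and leaving out a library can only keep or raise it. Gzmc, which counted as expressed through a mesenteric library alone, is among the 8, and without it the count was 7 of 8. The omental libraries were below for 8 of 8 NK cell markers and 8 of 8 T cell markers, for 2 of 3 markers of plasmacytoid dendritic cells, which can make granzyme B, and for 1 of 6 mast cell markers. Macrophage markers lay above in the omentum for 3 of 7 genes and below for 0.

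**Figure D3:**
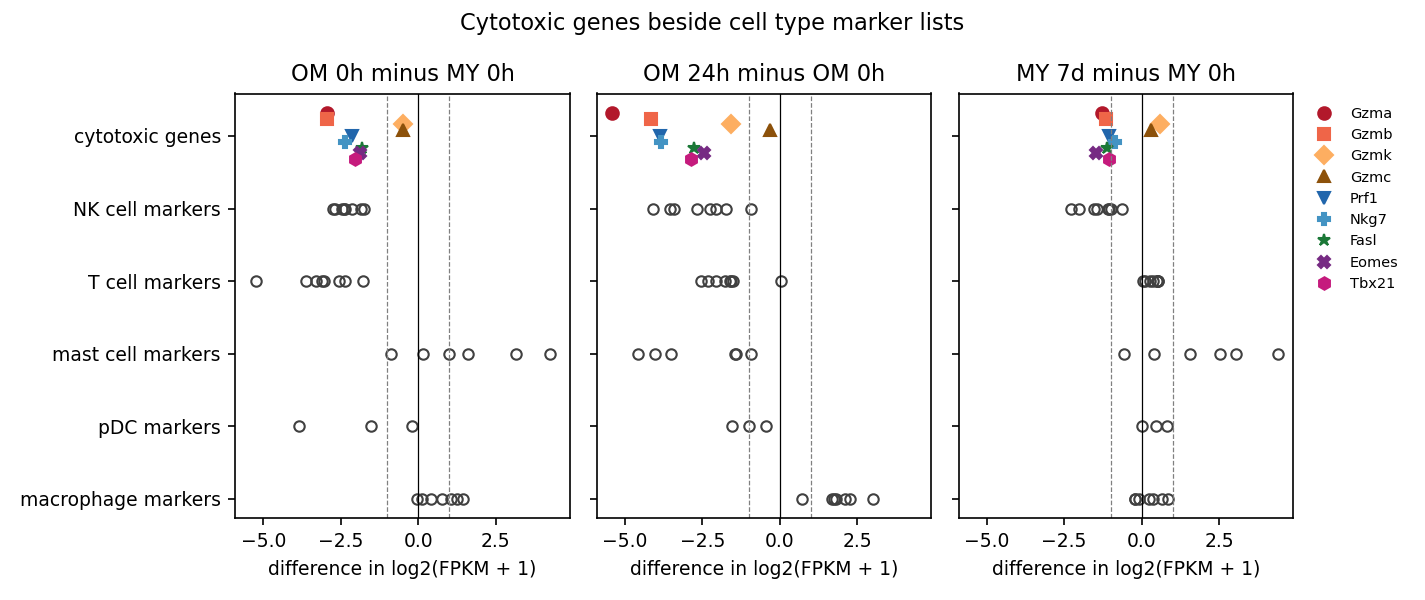
Differences in log2(FPKM + 1) of the 9 cytotoxic genes (coloured symbols) and of the genes of 5 marker lists (open circles) for OM 0h minus MY 0h, OM 24h minus OM 0h and MY 7d minus MY 0h, with dashed lines at 2-fold. NK cell markers lie on the negative side with most of the 9 genes in all 3 panels, whereas T cell markers lie at or above 0 in MY 7d minus MY 0h and macrophage markers above 0 in OM 24h minus OM 0h.

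The levels were also set against Ncr1, which encodes the NK cell receptor NKp46. The ratio of Prf1 to Ncr1 in FPKM lay between 0.783 and 1.32 in the 6 libraries, a highest to lowest ratio of 1.68, while Prf1 itself ran from 0.807 to 116. For Gzma the ratio to Ncr1 lay between 3.87 in OM 24h and 9.15 in MY 24h, for Eomes between 0.147 in MY 7d and 0.380 in OM 24h, and for Nkg7 between 7.08 in MY 0h and 21.7 in OM 24h. Ratios for these genes thus varied less than their levels did. Tbx21 was higher per Ncr1 in OM 24h, at 2.56, than in the other libraries, where it lay between 0.50 and 1.40. That direction depends on the marker. Relative to Klrd1, another of the NK cell markers, Tbx21 was lower in OM 24h (1.57 and 12.6 FPKM) than in OM 0h (17.5 and 55.6 FPKM). Gzmb and Fasl were lower per Ncr1 in OM 24h, at 0.0326 and 0.0223. Their own FPKM there, 0.020 and 0.0136, are too low for these ratios to be read closely. Without OM 24h, the highest to lowest ratio was 2.17 for Gzmb and 3.01 for Fasl. Set against the T cell gene Cd3e in the same way, the highest to lowest ratio was 4.51 for Prf1, 10.8 for Gzma and 6.53 for Eomes, wider than the 1.68, 2.37 and 2.59 against Ncr1. For Nkg7 it was 3.26 against Cd3e and 3.06 against Ncr1, and for Tbx21 it was 4.50 and 5.12. These include OM 24h, where Ncr1 itself was at 0.612 FPKM. Without that library the highest to lowest ratio against Cd3e and Ncr1 was 3.26 and 1.66 for Nkg7 and 4.50 and 2.80 for Tbx21. It was 4.04 and 2.17 for Gzmb, and 5.32 and 3.01 for Fasl. For the low granzymes, without OM 24h, it was narrower against Cd3e, at 5.19 for Gzmk and 5.41 for Gzmc, than against Ncr1, at 7.02 and 8.18. Among the 8 NK cell markers, Ncr1 had the lowest difference of OM 24h from OM 0h (-4.08) and Klrk1 the highest (-0.92). Among the 8 T cell markers, Cd3e had the lowest (-2.54) and Cd4 the highest (0.05). Ranges that include OM 24h therefore depend on the marker chosen. The comparison of Cd3e with Ncr1 describes these 2 genes and not the lists, and ratios to the other markers were not computed. A ratio to a marker does not show which cells held the transcript.

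**Figure D4:**
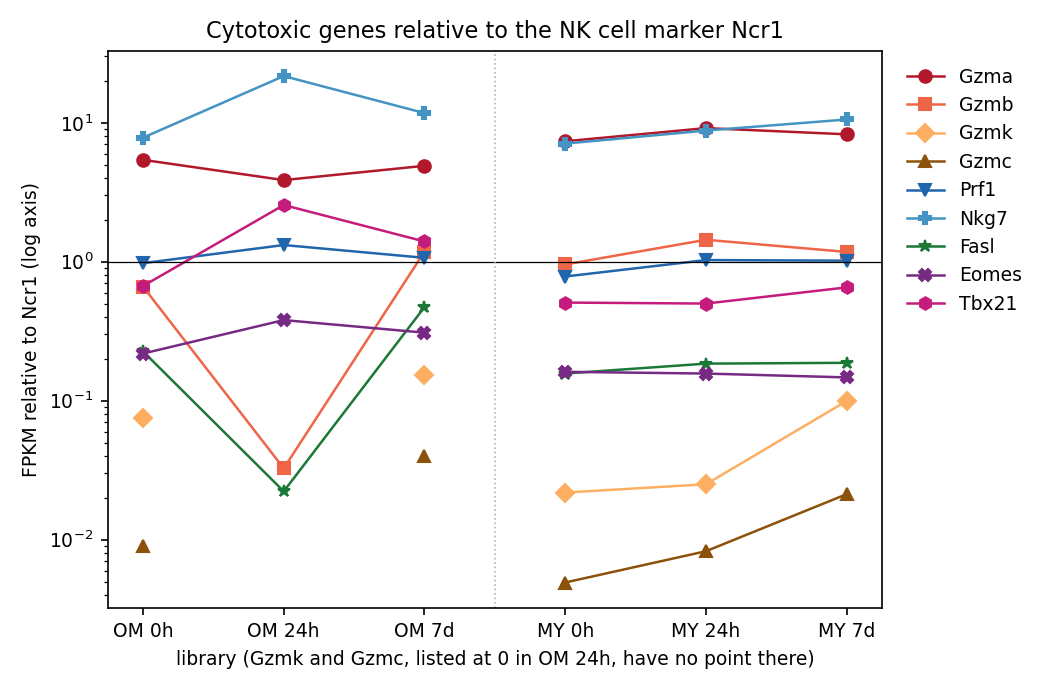
Ratio of the FPKM of each gene to that of the NK cell marker Ncr1 in the 6 libraries, on a log axis. Prf1 stays between 0.783 and 1.32, and in OM 24h Gzmb and Fasl lie at 0.0326 and 0.0223, while Gzmk and Gzmc, listed at 0 there, have no point. The Gzmb and Fasl points in OM 24h come from FPKM too low for a ratio to be read closely.

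The genes whose pattern was most like that of each member were sought among the 7997 genes that reached an FPKM of 10 in some library, as those with the smallest root-mean-square difference of log2(FPKM + 1) after centring on the mean over the 6 libraries. Gzmk and Gzmc did not reach that level. For Prf1 the nearest genes were Nkg7 (0.16), Ncr1 (0.16) and Klrc1 (0.31), an NK cell receptor. For Nkg7 they were Prf1 (0.16), Ncr1 (0.22) and Ctsw (0.25), a cathepsin of NK and CD8 T cells. Gzmb was nearest to Nkg7 (0.39) and Gzma to Gzmb (0.48). Fasl was nearest to Klrg1 (0.13), an inhibitory receptor of mature NK and effector T cells, and to Tbx21 (0.14), and Tbx21 in turn to Fasl (0.14) and Klrg1 (0.22). Eomes was nearest to Samd3 (0.16), Klri2 (0.17) and Klrd1 (0.17), the last 2 being NK cell receptor genes. These distances describe 6 points that share libraries, and a gene with low values in all libraries is pulled together by the added 1.

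Other granzymes were nearly absent. Of Gzmd, Gzme, Gzmf, Gzmg, Gzmn and Gzmm, the only one expressed was Gzmm, an NK cell granzyme, at 0.688, 0.0540 and 0.216 FPKM in the omental libraries and at 4.01, 1.65 and 3.20 in the mesenteric libraries. Gzmd, Gzme and Gzmg were listed at 0 in every library, and Gzmf and Gzmn were above 0 in MY 7d only, at 0.0524 and 0.0254. In the cluster on chromosome 14, 6 of 14 genes reached an FPKM of 1: Gzmb, Gzmc, the mast cell chymases Cma1 and Mcpt4, the basophil protease Mcpt8 and the neutrophil protease Ctsg. Genes of the cluster differed in pattern. Ctsg was at 11.6, 1.41 and 34.4 in the omental libraries and at 0.0560 in MY 24h, and was listed at 0 in MY 0h and MY 7d, whereas Gzmb was higher in the mesentery. Cma1 was at 24.6, 0.0838 and 21.6 in the omental libraries and at 21.9, 16.6 and 14.6 in the mesenteric ones.

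In a list of granule, lysosomal and cathepsin genes, Ctsw had a pattern like that of the abundant members. Ctsw was at 28.1, 2.16 and 25.8 FPKM in the omental libraries and at 221, 124 and 141 in the mesenteric libraries. Ctsc, the protease that activates progranzymes and that myeloid cells also make, was at 329, 797 and 240 in the omental libraries and at 136, 143 and 165 in the mesenteric ones. Of the 8 genes of this list, 5 were higher (Ctsc, Ctsl, Lamp1, Lamp2 and Cd63) and 1 lower (Ctsw) in OM 24h than in OM 0h. Of all expressed genes, 11.9% were higher and 6.45% lower. In the same comparison 6 of 7 macrophage markers were also higher. Srgn, the proteoglycan that holds granzymes in the granule, lay between 428 and 755 in all 6 libraries. Of 8 genes of granule exocytosis, 0 were called between OM 0h and MY 0h, and between OM 24h and OM 0h Vamp8 was higher (1.0) and Unc13d lower (-1.02).

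Of 4 granzyme inhibitors, which protect cells from granzymes, 3 were lower in the omentum. Serpinb9, the inhibitor of granzyme B, was at 14.7, 10.5 and 24.3 FPKM in the omental libraries and at 88.7, 77.4 and 56.4 in the mesenteric libraries. Serpinb9, Serpinb9b and Serpinb6b were lower in OM 0h than in the naive mesentery (median of the 4 genes -2.50), and Serpinb6a (0.20) was not called. Compared with OM 0h, Serpinb9 differed by -0.44 in OM 24h, where Gzmb differed by -4.17. The other inhibitors went different ways there, with Serpinb9b at -1.86, Serpinb6b at 0.82 and Serpinb6a at 1.25.

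On the receptor side of the Fas route, Fas was at 8.97, 15.9 and 18.5 FPKM in the omental libraries and at 26.3, 29.6 and 30.5 in the mesenteric ones. Of 11 expressed genes of the death pathways, 3 were lower in the naive omentum and 0 higher, beside 8.05% and 8.18% of all expressed genes. Among the 3 were Fas (-1.46) and Cflar (-1.21), a regulator of signalling from death receptors. None of the 11 was called in MY 24h or MY 7d against MY 0h.

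Of 20 measured regulators and cytokine inputs of the cytotoxic genes, 10 were lower and 2 higher in OM 0h than in MY 0h. Of all expressed genes, 8.05% were lower and 8.18% higher there, so the 2 of 20 that were higher lie near that share. The 10 included Stat4, which carries the interleukin-12 signal, at 17.3 against 56.2 FPKM, and Il2rb, the receptor chain for interleukin-2 and interleukin-15 that is also in the NK cell list, at 54.6 against 243. The 2 higher genes were Ikzf3 (1.62) and Nfil3 (1.16), a factor needed for NK cell development. Runx3 differed by -0.77 and was not called. In OM 24h against OM 0h, 8 were lower and 1 higher, Nfil3 (1.08), beside 6.45% and 11.9% of all expressed genes. In OM 7d against OM 0h 0 of 20 were called, beside 1.96% of all expressed genes lower and 11.0% higher. In MY 24h against MY 0h 3 were lower and 1 higher, beside 1.52% and 2.80% of all expressed genes. In MY 7d against MY 0h 2 were lower and 0 higher, beside 2.29% and 0.498%.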

How the data were processed

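RNA sequencing of sorted cells from 6 conditions gave 6 libraries, 1 per condition. The authors checked reads with FastQC 0.11.4, aligned them with STAR 2.4.2a to mm9 (NCBI37) using a UCSC annotation, and derived FPKM by Cufflinks, and the deposited table holds these FPKM values per gene symbol. FPKM do not give the reads behind them, which were not estimated here. Relative depth, taken from the commonest ratio of low FPKM values, ran from 0.859 to 1.49 times that of MY 0h, and the FPKM columns summed to between 526887 and 713863. Columns were matched to libraries by name, and FPKM are not counts, so no count test was run.

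Differences were computed as log2(FPKM + 1) with a pseudocount of 1 (Python 3.11.15, numpy 2.4.6, pandas 2.3.3; figures with matplotlib 3.10.9). Genes that reached an FPKM of 1 in some library (13064) were counted as expressed, and 2-fold or more as a call. The code that makes the calls was run on simulated data with planted changes, which checks the code and not the calls in these libraries. The 9 genes and the 16 lists (105 genes, 103 in the table) were chosen with earlier results of these data known. All 9 genes are named in every library. A gene of a list is named when it is a defining marker or is 2-fold or more apart in the comparison described. Other genes are named by the likeness rule given in the text, or, for the chromosome 14 cluster, Srgn and some values that were not called, after their values were seen. Pseudocounts of 0.1 and 5, other filters and other scalings were tried. Positions are those of GENCODE M1, not of the authors' annotation. For the list of death pathway genes, 1 gene is counted and not reported by name here.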

Additional observations from a re-analysis of the deposited data

Results flagged for a closer look

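Differences from the naive library that had opposite signs in the tissues were listed for the 9 genes at any size, and for markers of NK, T, innate-like, mast, basophil and plasmacytoid dendritic cells where both differences were at least 1.5-fold. This gave Gzmk and 4 markers, with 1 library per condition, and the difference between tissues was not tested. At 24 h, Il7r was at -1.56 in the omentum and 0.65 in mesenteric cells on the log2(FPKM + 1) scale, Mcpt4 at -1.43 and 1.34, and Tpsb2 at -4.02 and 3.02. At 7 d, Gzmk was at -0.092 in the omentum and 0.60 in mesenteric cells, and its omental sign changed when the libraries were rescaled to equal sums. The basophil protease Mcpt8 was at 2.87 and -1.23.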

How the results depend on the processing

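No paired analysis was possible because every comparison sets 1 library against 1 other. Pairing the tissues over the 3 times was not run, since the times are conditions and not replicates. A value was taken as unchanged within 1.5 times, or within 0.58 on the log2 scale. Of the counts and medians, 78 were unchanged by this measure and 17 moved, and of the differences of single genes 218 were unchanged and 34 moved. No difference of 2-fold or more changed sign, but 3 smaller ones in OM 7d against OM 0h did when each library was rescaled to a sum of 1000000: Gzmk to 0.0052, Fasl to 0.040 and Tbx21 to 0.048. Requiring FPKM to reach 1 in all 6 libraries left 3 genes (Gzma, Nkg7 and Tbx21). The genes 2-fold apart then numbered 3 for OM 0h against MY 0h, 3 for OM 24h against OM 0h, 1 for MY 24h against MY 0h, 2 for MY 7d against MY 0h, 3 for OM 24h against MY 24h and 3 for OM 7d against MY 7d, and 3 did not overlap between tissues. The medians became -3.85 for OM 24h against OM 0h, -5.49 for OM 24h against MY 24h and -2.05 for OM 7d against MY 7d. With a pseudocount of 0.1, which weights low values more, the medians of OM 24h became -4.38 against OM 0h and -5.58 against MY 24h, and 2 genes were 2-fold apart in OM 7d against OM 0h. With a pseudocount of 5 they became -1.78 and -2.66, and 0 genes were 2-fold apart in MY 24h against MY 0h. Rescaling each library to a sum of 1000000 moved the median of OM 24h against MY 24h to -4.59 and that of all expressed genes to -0.27. Leaving out each library in turn, chosen after seeing the data, gave between 8 and 9 genes that did not overlap between tissues. This count could not fall when a library was left out. Leaving out Gzmc, also chosen then, gave 7. The reads behind the low values, such as those of Gzmb and Fasl in OM 24h, were not estimated.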

Other observations

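The cytokine genes Ifng, Xcl1 and Lta also had their lowest values in OM 24h. Ifng, which encodes interferon gamma, was at 7.27, 0.0219 and 5.05 FPKM in the omental libraries and at 10.2, 4.21 and 3.92 in the mesenteric ones (naive, 24 h and 7 d). Xcl1, a chemokine of NK and CD8 T cells that draws dendritic cells, was at 30.8, 0.532 and 37.7 in the omentum and at 87.3, 35.2 and 26.1 in the mesentery. In OM 7d both were above their values in MY 7d, by less than 2-fold and with 1 library each. Lymphotoxin alpha (Lta) was at 19.4, 1.35 and 11.6 in the omental libraries and at 16.8, 10.4 and 13.8 in the mesenteric ones. Its naive values differed by 0.19 on the log2(FPKM + 1) scale, while 8 of 8 NK and 8 of 8 T cell markers were lower in OM 0h. The 4 B cell markers were all higher in OM 0h than in MY 0h, and all 4 were lower in OM 24h than in OM 0h.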
